A study of Equus caballus with 68 samples.

Results

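The comparison described here asks whether the effect of inflamed joint fluid on bone marrow cells differs between an early and a late time in culture. Bone marrow mononuclear cells (BMNC), the fraction of a marrow aspirate that holds monocytes, lymphocytes, progenitors and immature granulocytes, were cultured by horse in undiluted synovial fluid of the same animal. The fluid was either normal (SF), from a middle carpal joint, or inflamed (ISF), from a radiocarpal joint. Lipopolysaccharide had induced synovitis in the latter, and native cells had been removed from both fluids. Stored fluid of the same kind was added every 48 h, so cells at 10 d had met more additions than cells at 48 h. Fluid thus goes with joint, and time with repeated addition, and these cannot be told apart. The animals were 8 Thoroughbreds aged 3 to 9 years, 6 geldings and 2 mares, and every horse contributed cells to both fluids. RNA was sequenced from cells in SF and ISF at 48 h and at 10 d, with 7 libraries in each of the 4 groups, which gave 28 of the 68 libraries of the series. Flash enters at 48 h and not at 10 d, and Moon at 10 d and not at 48 h, so 6 horses (Catnip, Dealings, Dreamer, Lurie, Ollie and RimRun) have all 4. Each well held a mixed cell population from 1 culture, so the model is an adherent and non-adherent mixture whose composition can change with time.

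For each gene the quantity of interest was the difference ISF minus SF at 10 d less the same difference at 48 h, on log2(GeTMM + 1), called the interaction below. GeTMM is a length-corrected read count scaled between libraries. A positive interaction means that ISF moved up relative to SF between the 2 times, whichever fluid changed. It was tested with limma over all 68 libraries, two-sided, in 14570 of 30371 listed genes, and calls required an FDR (Benjamini-Hochberg) under 0.05. A called gene was said to appear when ISF and SF differed (FDR under 0.05) at 10 d and not at 48 h, to vanish in the opposite case, and to reverse when they differed at both times in opposite directions. Failing the threshold at 1 of the times does not show that the fluids were equal there.

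As background, marrow monocytes that are kept in synovial fluid become adherent macrophages, while granulocyte precursors and lymphocytes die or persist according to the factors available. Macrophages that meet inflammatory signals take up more glucose and ferment it to lactate, a switch that shares many genes with the response to low oxygen driven by the transcription factor HIF. Antigen presentation on MHC class II depends on the co-activator CIITA and serves the activation of helper T cells.

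The 28 libraries held 15.7 to 36.0 M reads on genes (median 22 M). Stromal and fibroblast genes, which mark a cell type that can grow out of marrow, were uneven in SF at 10 d. Their mean level over 17 tested genes was 3.95 to 7.51 on log2(GeTMM + 1) in Dealings, Dreamer and Lurie and 2.07 to 2.84 in the other 4 horses, against 1.55 to 3.11 in ISF at 10 d and 1.16 to 1.73 in SF at 48 h. Neutrophil precursor genes stood at 7.32 in the SF library of Catnip at 10 d, against 1.38 to 5.54 in the other 6. Interferon-stimulated genes stood at 7.91 in the SF library of Dealings at 10 d, against 3.70 to 6.21 in the other 6. Among the named genes, 50 were called. Without the 3 SF libraries rich in stromal genes 22 of these no longer passed the threshold, and without the SF library of Catnip 7 did not. Leaving out all libraries of 1 horse cost 26 of the 50 for Ollie, 19 for Dreamer, 18 for Catnip and 12 for Lurie or Dealings. Whether the loss of 22 reflects stromal genes, the interferon-stimulated genes of Dealings, another trait of these libraries or fewer SF libraries was not tested. In bulk samples such as these, fewer cells of a type and less RNA per cell cannot be told apart. The median change of 17 macrophage genes from 48 h to 10 d was 1.29 in ISF and 1.25 in SF. None of them was called in the interaction by limma or by limma voom on recovered reads, and 4 had an unadjusted p under 0.05.

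Of the 14570 genes tested, 436 (2.99%) were called. The interaction was positive in 231 (1.59%) and negative in 205 (1.41%), and 2401 genes had an unadjusted p under 0.05. Its median over all genes tested was -0.01. With horse as a block in the same 68 libraries, 1095 genes were called, 527 higher and 568 lower, and all 436 were among them. Paired within the 6 horses with 4 libraries, limma called 969, with 328 of the 436 among them, and in the 28 libraries alone it called 577, with 332. Of the 50 called genes named here, those lost in the paired fit were CXCL8 (FDR = 0.0829), VEGFA (FDR = 0.0713), HSP90B1 (FDR = 0.106) and HSPA5 (FDR = 0.059). Without the SF libraries of Dealings, Dreamer and Lurie at 10 d, 175 genes were called (96 higher and 79 lower), 158 of them among the 436. Without the SF library of Catnip at 10 d the count was 346. Leaving out Moon gave 1174 calls, and leaving out only the SF library of Moon at 6 d, which is in neither time compared but enters the shared estimate of spread, gave 979. The sign was the same in all 6 horses for 363 of the 436 genes (83.3%), against 15.0% of all genes tested. Since these 6 horses also enter the fit, the share describes the calls and does not test them.

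**Figure D1:**
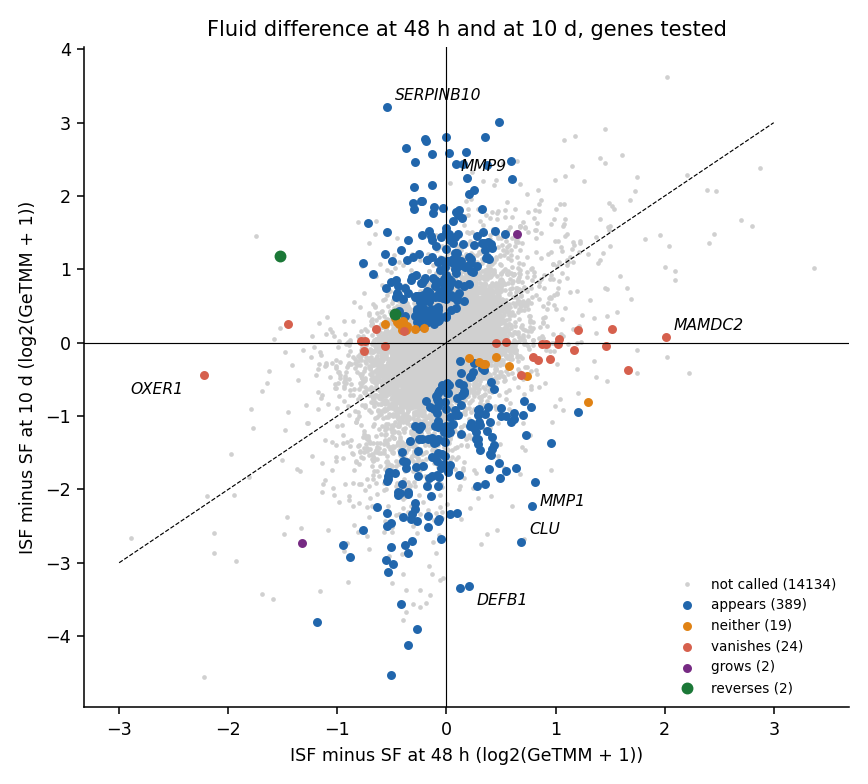
Each point is a gene, with ISF minus SF at 48 h on the horizontal axis and at 10 d on the vertical axis, both on log2(GeTMM + 1), coloured by class with the number of genes in brackets. The dashed line marks equal differences. Most called genes (389 of 436) passed the threshold at 10 d and not at 48 h, and their median absolute difference was 0.19 on the horizontal and 1.13 on the vertical axis. These medians follow in part from that choice of genes.

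The predominant pattern was a fluid effect that appeared. It held for 389 of the 436 called genes, 209 with ISF above SF at 10 d and 180 with ISF below. At 48 h the median absolute fluid difference of these genes was 0.19, close to the 0.16 of all genes tested, and at 10 d it was 1.13 against 0.24. The calls at these 2 times define the class, so this contrast follows in part from the choice of genes. A vanishing effect was seen in 24 genes, 16 that were higher in ISF at 48 h and 8 that were lower. A reversal was seen in 2 genes and a larger effect of the same sign in 2, while 19 called genes passed the threshold at neither time. Over all genes tested, ISF and SF differed in 245 (1.68%) at 48 h and in 3027 (20.8%) at 10 d. ISF was higher in 127 (0.872%) and lower in 118 (0.81%) at 48 h, and at 10 d it was higher in 1449 (9.95%) and lower in 1578 (10.8%). More genes differed at 6 d than at 10 d, with ISF higher in 2427 (16.7%) and lower in 1978 (13.6%). The groups at 6 d held 8 libraries each, against 7 at 10 d.

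Fluid differences at 96 h and 6 d did not enter the definition of these classes, although their libraries come from the same horses and enter the shared estimate of spread. At 6 d, 141 of the 209 genes that appeared higher were already higher in ISF (FDR under 0.05), against 16.7% of all genes tested. Of the 180 that appeared lower, 138 were already lower, against 13.6%. At 96 h these counts were 34, against 6.16% of all genes tested, and 48, against 4.3%. The genes were chosen for their fluid difference at 10 d in the same horses, so an excess at nearby times follows in part from that choice. These shares describe the course and are no test of it. The median fluid difference of the first group was -0.07 at 48 h, 0.22 at 96 h, 0.59 at 6 d and 0.92 at 10 d. In the second group it was -0.02, -0.42, -0.92 and -1.35. A minority ran the other way first. KLHL25, IL18, FSCN1 and ENSECAG00000038714, which has no symbol, were higher in ISF at 96 h and lower at 10 d, and the last of these was also higher at 6 d. They were picked out after their values were seen. Other single genes, described below, also departed from the course of the medians. ISF minus SF was 3.52 at 6 d and 3.21 at 10 d for SERPINB10, and -3.98 and -3.31 for DEFB1. For MMP9 it was 1.57 and 2.58, as in the medians.

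**Figure D2:**
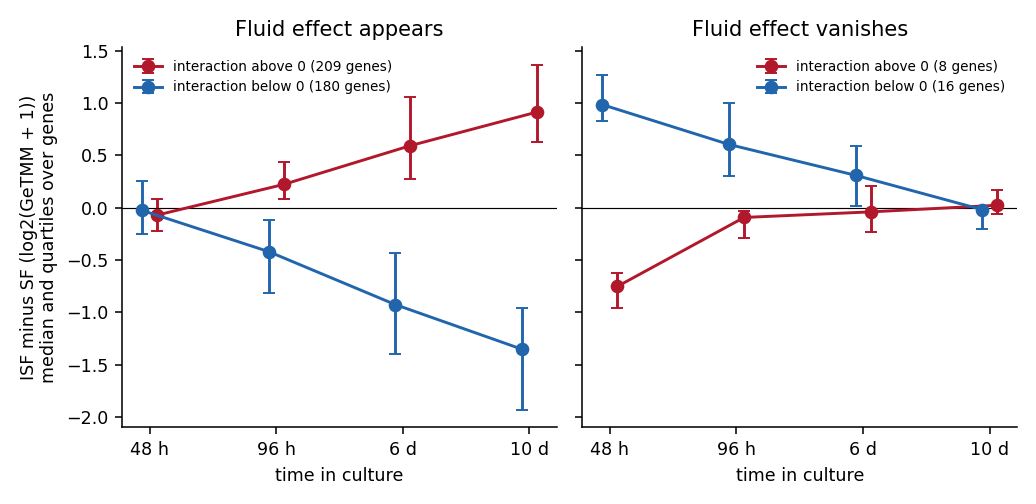
Median and quartiles over genes of ISF minus SF on log2(GeTMM + 1) at the 4 times in culture, for genes whose fluid effect appeared (left, 209 and 180 genes) or vanished (right, 8 and 16 genes). The 48 h and 10 d values chose the genes, and the medians at 96 h and 6 d lie between those at 48 h and 10 d. Single genes need not follow the medians.

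The 2 fluids contributed to the called interactions in different ways. Of the 231 genes with a positive interaction, 154 rose in ISF from 48 h to 10 d and 29 fell, against 27.2% and 26.4% of all genes tested, while 65 rose and 92 fell in SF, against 26.7% and 24.1%. Of the 205 with a negative interaction, 11 rose and 142 fell in ISF, and 87 rose and 36 fell in SF. The fluids moved in opposite directions, both past the threshold, in 15 of the former and 24 of the latter. These counts use the same libraries as the interaction and describe which fluid moved.

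**Figure D3:**
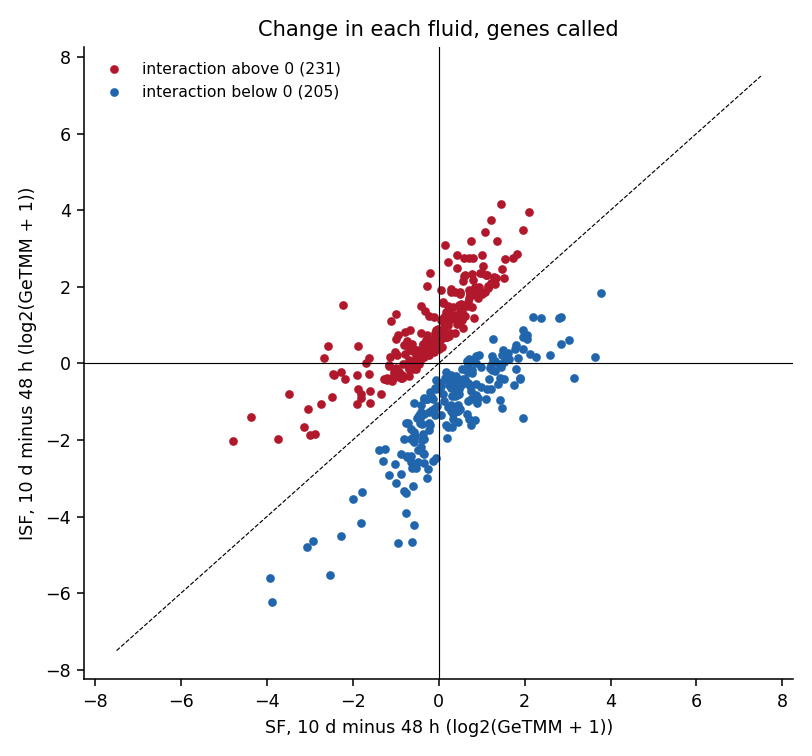
Change from 48 h to 10 d in SF (horizontal) and in ISF (vertical) on log2(GeTMM + 1) for the 436 called genes, coloured by the sign of the interaction. The dashed line marks equal change in both fluids, and genes with a positive interaction (231) lie above it.

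Among single genes the highest interaction belonged to SERPINB10, a serine protease inhibitor of the clade B family made in haematopoietic cells. SERPINB10 had a lowest, median and highest level of 381, 492 and 693 GeTMM in SF at 48 h, 88, 289.7 and 1583 in ISF at 48 h, 35, 105 and 317 in SF at 10 d and 472, 845 and 2535 in ISF at 10 d. The 2 fluids overlapped at 48 h, whereas at 10 d every ISF library was above every SF library. Its interaction was 3.75 ± 0.70 (SE; FDR = 0.000743; above 0 in 6 of 6 horses), and the change from 48 h to 10 d was 1.51 in ISF (FDR = 0.00764) and -2.24 in SF (FDR = 0.000125).

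TREM1, a receptor that amplifies inflammatory signalling in monocytes and neutrophils, fell in both fluids and fell further in SF. TREM1 had a lowest, median and highest level of 222, 452 and 515 GeTMM in SF at 48 h, 164, 357 and 526 in ISF at 48 h, 1.62, 29.2 and 52.5 in SF at 10 d and 35.2, 164 and 286 in ISF at 10 d. Levels at 48 h overlapped, and at 10 d the lowest ISF library lay inside the SF range. The interaction of TREM1 was 2.97 ± 0.66 (SE; FDR = 0.00472; above 0 in 6 of 6 horses). MMP9, the gelatinase of neutrophils, macrophages and osteoclasts, rose in ISF, while its change in SF did not pass the test. MMP9 had a lowest, median and highest level of 437, 668 and 799.8 GeTMM in SF at 48 h, 412, 607 and 1246 in ISF at 48 h, 186, 639 and 1371 in SF at 10 d and 971, 3974 and 9859 in ISF at 10 d. The lowest ISF libraries at 10 d lay within the SF range, and the ISF median was above it. For MMP9 the interaction was 2.56 ± 0.61 (SE; FDR = 0.00991; above 0 in 6 of 6 horses), with a change of 2.36 in ISF (FDR = 4.64e-06) and -0.20 in SF (FDR = 0.728). Without the SF libraries of Dealings, Dreamer and Lurie at 10 d it was 2.10 (FDR = 0.0809).

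Among called genes with a symbol, a group mean of at least 5 GeTMM and 1 sign in all 6 horses, the other 5 of the 8 highest were TNFSF15, a tumour necrosis factor family ligand, USP50, a member of the ubiquitin-specific protease family, GOLGA7B, HK2, the inducible hexokinase, and ITGB7, an integrin beta chain that guides leukocyte homing. ITGB7 had a lowest, median and highest level of 12.7, 34.9 and 57 GeTMM in SF at 48 h, 22.8, 27.1 and 43.7 in ISF at 48 h, 11, 30.7 and 46.8 in SF at 10 d and 81.5, 97.4 and 209 in ISF at 10 d. No ISF library of ITGB7 at 10 d overlapped the SF range, and its interaction was 2.28 ± 0.47 (SE; FDR = 0.00215; above 0 in 6 of 6 horses). The interaction was 2.42 (FDR = 0.00275) for TNFSF15, 2.41 (FDR = 0.00767) for USP50 and 2.35 (FDR = 0.00256) for GOLGA7B, which was not called without the 3 stromal-rich SF libraries (FDR = 0.0567). TNFSF15 and GOLGA7B had medians under 1 GeTMM in both fluids at 48 h and of 10.05 and 10.4 GeTMM in ISF at 10 d. CXCL8, the neutrophil chemoattractant interleukin 8, had an interaction of 2.81 ± 0.68 (SE; FDR = 0.0114; above 0 in 5 of 6 horses), with an exact sign-flip p of 0.0938 over 6 horses. It fell in SF by 2.68 on the log2 scale (FDR = 4.87e-06) and changed by 0.14 in ISF (FDR = 0.838).

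For the genes named for having 1 sign in all 6 horses, the exact sign-flip test gives 0.03125 by that choice, which is the smallest p that 6 horses allow. It is not repeated for each gene.

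The lowest interaction among called genes with a symbol belonged to DEFB1, an epithelial-type antimicrobial beta-defensin. DEFB1 had a lowest, median and highest level of 5.06, 16.4 and 26 GeTMM in SF at 48 h, 9.19, 15.8 and 36.5 in ISF at 48 h, 70.4, 161 and 225 in SF at 10 d and 5.04, 12.2 and 45.9 in ISF at 10 d. Libraries of the 2 fluids overlapped at 48 h, and every SF library exceeded every ISF library at 10 d. DEFB1 had an interaction of -3.52 ± 0.69 (SE; FDR = 0.00132; below 0 in 6 of 6 horses), with a change of -0.38 in ISF (FDR = 0.54) and 3.15 in SF (FDR = 2.13e-07). PRELP, a leucine-rich proteoglycan that anchors basement membrane to connective tissue, had the same shape. PRELP had a lowest, median and highest level of 1.91, 3.57 and 6.59 GeTMM in SF at 48 h, 1.36, 3.22 and 25.2 in ISF at 48 h, 30.4, 64.1 and 113 in SF at 10 d and 0.966, 4.05 and 16.6 in ISF at 10 d. SF was above ISF in all libraries at 10 d. PRELP gave -3.47 ± 0.83 (SE; FDR = 0.0102; below 0 in 6 of 6 horses), and -3.56 (FDR = 0.0334) without the 3 SF libraries rich in stromal genes.

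CLU, which encodes the secreted chaperone clusterin, was carried by few libraries. CLU had a lowest, median and highest level of 0.753, 1.65 and 9.91 GeTMM in SF at 48 h, 1.79, 3.39 and 8.86 in ISF at 48 h, 0.366, 3.22 and 652 in SF at 10 d and 0.231, 0.492 and 3.34 in ISF at 10 d. The SF values at 10 d reached from near the bottom of the other groups to far above their top. Its interaction of -3.41 ± 0.97 (SE; FDR = 0.0362; below 0 in 6 of 6 horses) became -1.24 (FDR = 0.506) without the SF libraries of Dealings, Dreamer and Lurie at 10 d, and -2.38 (FDR = 0.134) without Lurie.

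MMP1, the interstitial collagenase, fell in both fluids and further in ISF. MMP1 had a lowest, median and highest level of 715, 1459.9 and 1741 GeTMM in SF at 48 h, 1413, 2292 and 3576 in ISF at 48 h, 26, 319 and 590.4 in SF at 10 d and 18, 55.3 and 120.5 in ISF at 10 d. At 48 h the ISF median was above the SF median, and at 10 d the order was the opposite with overlapping ranges. The interaction of MMP1 was -3.01 ± 0.71 (SE; FDR = 0.0086; below 0 in 6 of 6 horses), with a fluid difference that went from 0.78 at 48 h to -2.22 at 10 d. The same order of medians was seen for CD52, a small surface glycoprotein of lymphocytes and monocytes. CD52 had a lowest, median and highest level of 17.6, 46.9 and 67.9 GeTMM in SF at 48 h, 22.1, 103.5 and 163 in ISF at 48 h, 20.2, 29.4 and 67.4 in SF at 10 d and 4.64, 7.26 and 15 in ISF at 10 d. The ranges of CD52 at 10 d did not overlap, and its interaction was -2.71 ± 0.65 (SE; FDR = 0.0102; below 0 in 6 of 6 horses). TMEM92, a transmembrane protein, and EMCN, the endothelial sialomucin endomucin, had interactions of -2.63 (FDR = 0.0137) and -2.42 (FDR = 0.00368). The difference arose in ISF for TMEM92 (-3.39 in ISF (FDR = 6.01e-09) and -0.77 in SF (FDR = 0.163)) and in SF for EMCN (0.60 in ISF (FDR = 0.171) and 3.02 in SF (FDR = 4.89e-10)), which was the called member of 6 tested endothelial genes, against 1.41% of all genes tested. Limma voom called 0 of the 6.

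**Figure D4:**
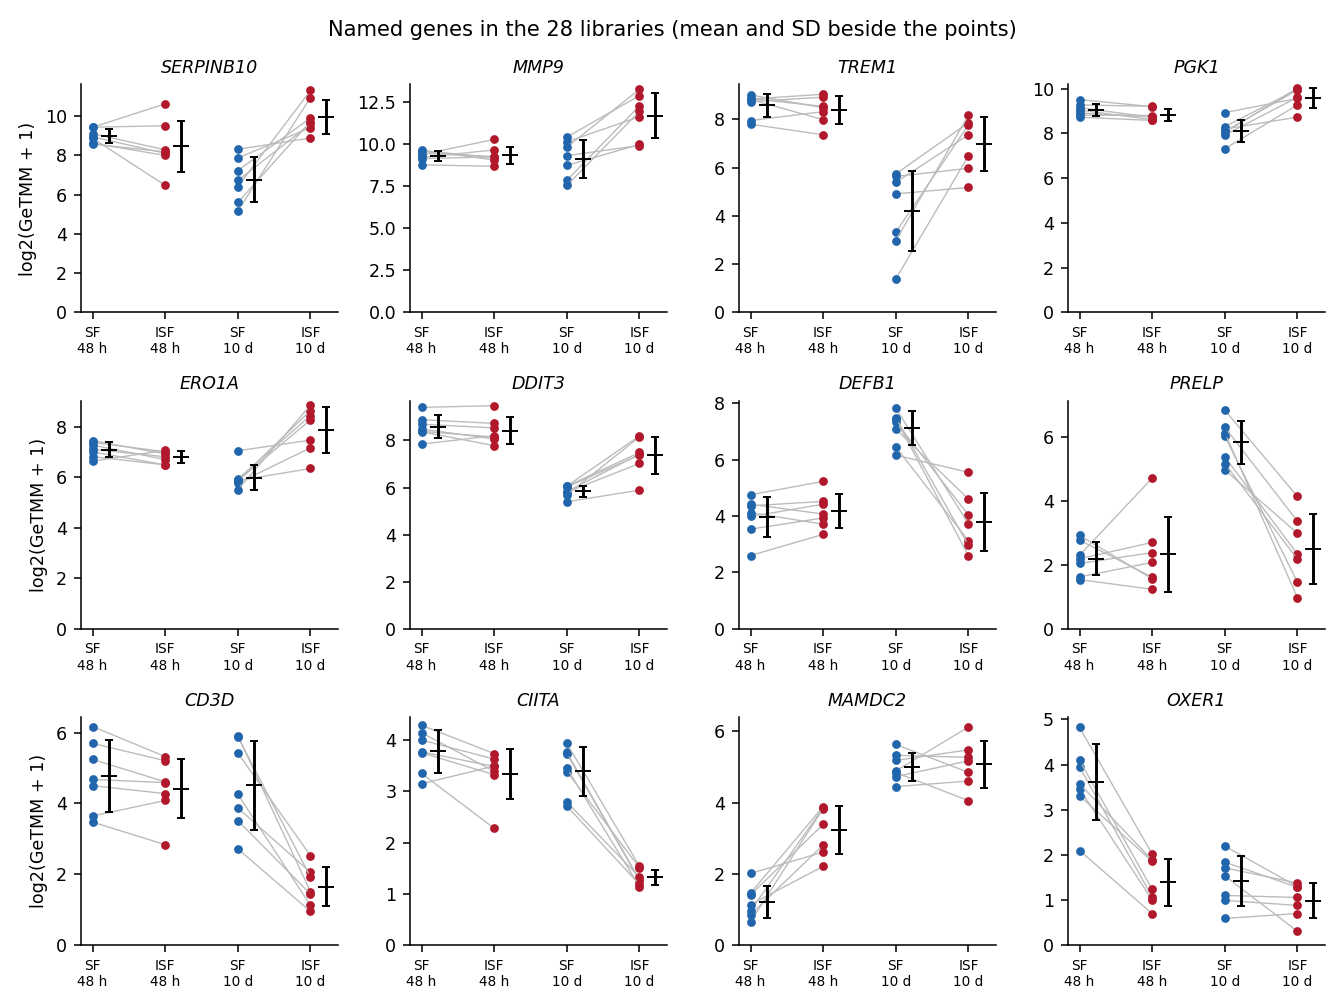
Levels of 12 named genes on log2(GeTMM + 1) in the 28 libraries, blue for SF and red for ISF, with grey lines joining the 2 libraries of a horse and black marks for the mean and SD of 7 libraries. The fluids separate at 10 d for genes such as SERPINB10, DEFB1 and PRELP, and at 48 h for MAMDC2 and OXER1.

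Of 22 listed genes of glycolysis, the pathway from glucose to lactate, 21 were tested and 8 had a called interaction, all higher (HK1, HK2, PGK1, LDHA, TPI1, ALDOA, SLC2A1 and SLC16A3), against 1.59% of all genes tested. The median interaction of the 21 was 0.88, against -0.01 over all genes tested, and 20 of them were above 0. Their median fluid difference was already 0.28 at 48 h and was 1.29 at 10 d, against -0.02 at both times over all genes tested. The mean level of the 21 in SF at 10 d was 7.45 on log2(GeTMM + 1) in Lurie and 5.88 to 6.61 in the other 6 horses, against 6.83 to 8.21 in ISF. PGK1, phosphoglycerate kinase, was the member with the lowest p. PGK1 had a lowest, median and highest level of 421, 526 and 728 GeTMM in SF at 48 h, 381, 427 and 591 in ISF at 48 h, 158, 271 and 486 in SF at 10 d and 422, 778 and 1038 in ISF at 10 d. Its ranges overlapped at 48 h and, by a narrow margin, at 10 d. PGK1 had an interaction of 1.69 ± 0.27 (SE; FDR = 8.51e-05; above 0 in 6 of 6 horses), with a change of 0.75 in ISF (FDR = 0.000639) and -0.94 in SF (FDR = 2.9e-05). ALDOA, fructose-bisphosphate aldolase, gave 1.53 ± 0.28 (SE; FDR = 0.000509; above 0 in 6 of 6 horses). LDHA, the lactate dehydrogenase subunit of fermenting cells, gave 1.08 (FDR = 0.00365), HK1, the constitutive hexokinase, 0.88 (FDR = 0.00368) and HK2 2.28 (FDR = 0.0366). HK2 was not called without the 3 stromal-rich SF libraries (FDR = 0.0815). LDHA rose in ISF by 1.19 (FDR = 9.21e-09) and changed by 0.11 in SF (FDR = 0.591). The count was 11 higher and 1 lower with horse as a block, 7 higher and 1 lower without the 3 stromal-rich SF libraries, and from 4 higher (without Ollie or without RimRun) to 14 (without Moon) as each horse was left out. Over all genes tested, 231 were higher in the main fit, 527 with the block and 96 without those SF libraries. Without Ollie, RimRun or Moon the total higher was 89, 129 and 649.

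All 20 listed genes of the hypoxia and HIF response were tested, and 7 were called, all higher (BNIP3, BNIP3L, P4HA1, KDM3A, VEGFA, ERO1A and ANKRD37), against 1.59% of all genes tested, with a median interaction of 0.87. The interaction was above 0 in 15 of the 20 and below 0 in 5. ERO1A, the oxidase that forms disulphide bonds in the endoplasmic reticulum, had the lowest p. ERO1A had a lowest, median and highest level of 99, 137 and 175 GeTMM in SF at 48 h, 89.5, 112 and 134 in ISF at 48 h, 44.7, 57.7 and 132 in SF at 10 d and 80.8, 310.0 and 465 in ISF at 10 d. The SF library of Lurie stood apart from the other SF libraries at 10 d, at 132 GeTMM, and lay within the ISF range. The interaction of ERO1A was 2.21 ± 0.39 (SE; FDR = 0.000337; above 0 in 6 of 6 horses). BNIP3, a mitophagy receptor, had 2.71 ± 0.54 (SE; FDR = 0.00156; above 0 in 5 of 6 horses), and P4HA1, a collagen prolyl hydroxylase subunit, 1.64 ± 0.36 (SE; FDR = 0.00488; above 0 in 5 of 6 horses). For both, and for VEGFA, a vascular growth factor, at 2.36 ± 0.62 (SE; FDR = 0.0225; above 0 in 5 of 6 horses), the exception among the horses left the exact sign-flip p at 0.0625. In SF at 10 d Lurie was also the highest for BNIP3 (365 GeTMM), P4HA1 (287 GeTMM) and VEGFA (51.8 GeTMM). Its mean level of the 20 genes there was 6.03 on log2(GeTMM + 1), against 4.29 to 4.38 in the other 6 horses. As each horse was left out, 2 (without Ollie) to 9 (without Lurie) of the 20 genes were called, with 3 without RimRun and 4 without Catnip. Without the 3 stromal-rich SF libraries 7 were called, with a median of 0.95. Calls over all genes tested were 436 in the main fit and 175 without those SF libraries. Without Ollie, Catnip, Lurie or RimRun they were 173, 218, 259 and 325.

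Unfolded protein response genes included 4 called members of 25 tested (26 listed), all higher, against 1.59% of all genes tested, with a median interaction of 0.57 and 24 of 25 above 0. The median fluid difference of the 25 was already 0.27 at 48 h and was 0.89 at 10 d, against -0.02 at both times over all genes tested. DDIT3, the stress-induced transcription factor CHOP, fell in both fluids and fell less in ISF. DDIT3 had a lowest, median and highest level of 229, 357 and 676 GeTMM in SF at 48 h, 219, 294 and 711 in ISF at 48 h, 41.1, 55.9 and 65.7 in SF at 10 d and 58.3, 169 and 291 in ISF at 10 d. At 48 h the fluids overlapped, and at 10 d only the lowest ISF library fell within the SF range. Its interaction was 1.69 ± 0.40 (SE; FDR = 0.00857; above 0 in 6 of 6 horses). HSPA5, the chaperone BiP, gave 0.94 (FDR = 0.0395), HSP90B1, its partner chaperone, 0.80 (FDR = 0.0344) and EDEM1, which helps to remove misfolded glycoproteins, 0.78 (FDR = 0.0324). Of 23 alternatives, HSPA5 lost its call in 15, HSP90B1 in 14 and EDEM1 in 12. With horse as a block 8 of the list were called. The count was 2 without the SF library of Catnip at 10 d and 1 without the 3 stromal-rich SF libraries. It was 0 without Ollie, 1 without Catnip, Dreamer, Flash, Lurie or RimRun, 5 without Dealings and 14 without Moon. Calls over all genes tested were 436 in the main fit, 1095 with the block, 346 without the SF library of Catnip and 175 without the 3 stromal-rich SF libraries. Without Ollie, Dealings or Moon they were 173, 255 and 1174, and from 181 (without Dreamer) to 325 (without RimRun) for the other horses.

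All 14 tested T cell genes, of 16 listed, had a negative interaction, with a median of -1.34, and 5 were called (CD3D, CD3E, CD3G, CD2 and LCK), against 1.41% of all genes tested. The median fluid difference of the 14 was already -0.43 at 48 h and was -1.97 at 10 d, against -0.02 at both times over all genes tested. CD3D is a chain of the T cell receptor complex. CD3D had a lowest, median and highest level of 10.1, 24.5 and 71 GeTMM in SF at 48 h, 6.15, 23.1 and 39 in ISF at 48 h, 5.58, 18.1 and 59.1 in SF at 10 d and 0.936, 1.85 and 4.76 in ISF at 10 d. Ranges overlapped at 48 h and did not at 10 d. The interaction of CD3D was -2.51 ± 0.67 (SE; FDR = 0.024; below 0 in 6 of 6 horses), with a change of -2.77 in ISF (FDR = 1.35e-06) and -0.26 in SF (FDR = 0.672). CD3G and CD3E, 2 other chains of that complex, gave -2.41 (FDR = 0.0122) and -2.27 (FDR = 0.0243), and LCK, the kinase that the complex activates, -1.98 (FDR = 0.0273). The mean level of the list was 2.04 to 3.53 in ISF and 2.52 to 4.26 in SF at 48 h, and 1.04 to 1.81 and 2.28 to 4.31 at 10 d. The count was 9 with horse as a block, 1 without the SF library of Catnip at 10 d and 0 without the 3 stromal-rich SF libraries, where the median interaction was -1.04. It was 0 without Ollie, 1 without Catnip, Dealings or Lurie, 2 without Dreamer, 3 without Flash, 6 without RimRun and 7 without Moon. Calls over all genes tested moved too, from 436 to 1095 with the block. They numbered 346 without the SF library of Catnip and 175 without the 3 stromal-rich SF libraries. As horses were left out they numbered 173 (Ollie), 181 (Dreamer), 218 (Catnip), 255 (Dealings), 259 (Lurie), 313 (Flash), 325 (RimRun) and 1174 (Moon).

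Of the genes of natural killer and cytotoxic lymphocytes, 14 were tested (15 listed) and 2 were called, PRF1 and CST7, both lower, against 1.41% of all genes tested, with a median of -0.92. Without the 3 stromal-rich SF libraries, or without that of Catnip, the count was 1. Calls over all genes tested were then 175 and 346, against 436 in the main fit. CST7, cystatin F, an inhibitor of granule proteases, had -2.32 ± 0.44 (SE; FDR = 0.000925; below 0 in 6 of 6 horses) and went from 0.95 at 48 h to -1.37 at 10 d in its fluid difference. None of 14 tested B cell and plasma cell genes was called by limma or limma voom, although 9 had an unadjusted p under 0.05 and the median was -1.05. POU2AF1, a B cell transcriptional co-activator, had the lowest p among them, at -2.06 (FDR = 0.0515).

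MHC class II genes numbered 13 tested entries from 15 listed symbols, with 3 entries under the symbol DRB, and 3 were called, all lower, against 1.41% of all genes tested, with a median of -0.68. The interaction was below 0 in 9 of the 13 and above 0 in 4. The median fluid difference of the 13 was already -0.47 at 48 h and was -1.12 at 10 d, against -0.02 at both times over all genes tested. At 10 d, 8 entries were lower in ISF and 2 higher (FDR under 0.05). CIITA had a lowest, median and highest level of 7.87, 12.7 and 18.6 GeTMM in SF at 48 h, 3.86, 10.2 and 12.3 in ISF at 48 h, 5.56, 9.97 and 14.3 in SF at 10 d and 1.21, 1.42 and 1.91 in ISF at 10 d. For CIITA the 2 fluids overlapped at 48 h and did not at 10 d. Its interaction was -1.63 ± 0.35 (SE; FDR = 0.0032; below 0 in 6 of 6 horses). RFX5, a factor that binds class II promoters together with CIITA, gave -0.68 (FDR = 0.023), and the DRB entry ENSECAG00000012933 gave -1.71 (FDR = 0.0234). DRB genes are near-identical copies, so the split of reads between entries is uncertain. Of the dendritic cell genes, 11 were tested and 4 called, all lower, against 1.41% of all genes tested. The median was -0.39, and 3 of the 11 were above 0. These were LAMP3, a lysosomal marker of mature dendritic cells, at -2.12 ± 0.50 (SE; FDR = 0.0086; below 0 in 5 of 6 horses), FSCN1, the actin-bundling protein fascin, at -1.69 (FDR = 0.0102), IRF8, a factor that specifies dendritic cells, at -0.73 (FDR = 0.0128), and BATF3, described below with the vanishing effects. Without the 3 stromal-rich SF libraries 1 of the MHC class II genes and 0 of the dendritic cell genes were called, and without Ollie these counts were also 1 and 0. The MHC class II count was 1 without Catnip or Lurie too, and the dendritic cell count was 2 without Catnip or RimRun. Calls over all genes tested were 436 in the main fit and 175 without the 3 stromal-rich SF libraries. Without Ollie, Catnip, Lurie or RimRun they were 173, 218, 259 and 325. T cell and MHC class II levels moved together in ISF at 10 d, and their part in each other was not tested.

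Matrix genes had low medians and few calls. The interaction was negative in 23 of 27 tested collagen and cartilage matrix genes and in 15 of 17 tested stromal genes, with medians of -1.65 and -1.92, but 2 and 1 were called, all lower, against 1.41% of all genes tested. These were COL4A1, a basement membrane collagen, at -2.33 (FDR = 0.00583), and PRELP, which is on both lists. COL4A1 had a lowest, median and highest level of 0.0199, 0.223 and 0.513 GeTMM in SF at 48 h, 0.011, 0.225 and 0.445 in ISF at 48 h, 3.52, 6.64 and 67.2 in SF at 10 d and 0.111, 0.982 and 1.15 in ISF at 10 d. The SF range of COL4A1 at 10 d lay above the ISF range, and Lurie was its highest value. Without the SF libraries of Dealings, Dreamer and Lurie at 10 d the medians were -0.21 and -0.16, and COL4A1 was -1.65 (FDR = 0.0663). Without Moon 15 and 11 were called, and without Ollie 1 and 0, while 6 collagen and matrix genes were called without the SF library of Catnip at 10 d and 7 with horse as a block. In the same order, calls over all genes tested were 1174, 173, 346 and 1095, against 436 in the main fit. HPGDS, the haematopoietic prostaglandin D synthase, was the called gene of 5 tested in the mast cell and basophil list, against 1.41% of all genes tested. Its interaction was -1.96 ± 0.38 (SE; FDR = 0.00117; below 0 in 6 of 6 horses). In that list 4 of the 5 had a mean under 1 GeTMM in every group compared, so it says little about mast cells.

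**Figure D5:**
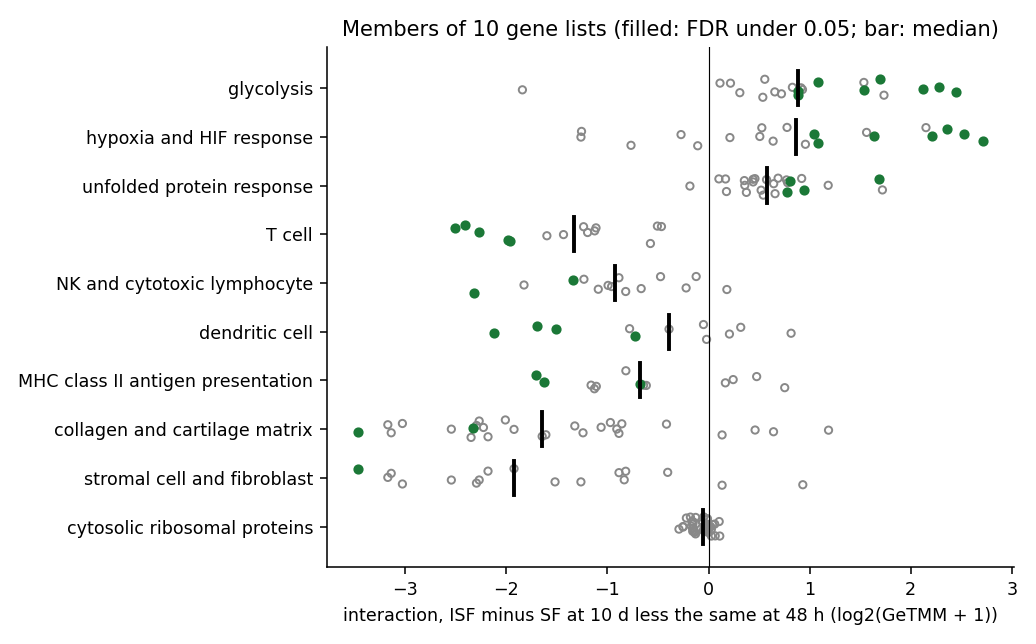
Interaction of each tested member of 10 gene lists on log2(GeTMM + 1), filled where the FDR was under 0.05, with a bar at the list median. The medians of glycolysis (0.88) and hypoxia (0.87) lie to the right of 0, those of T cell (-1.34) and stromal genes (-1.92) to the left, and ribosomal protein genes (-0.05) at 0.

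The lists that follow had 1 or 2 called members each, against 2.99% of all genes tested. In the matrix metalloproteinase list of 13 tested genes, MMP9 was higher and MMP1 lower. In the list of NF-kappaB and acute inflammation (25 tested), CXCL8 was higher and IL18, an inflammasome cytokine, lower, at -1.55 (FDR = 0.0233). IL18 was not called without the 3 stromal-rich SF libraries (FDR = 0.0628) or without that of Catnip (FDR = 0.0502). PPARD, a lipid-sensing nuclear receptor, was the called member of 22 lipid uptake genes, at -1.08 (FDR = 0.0487). It lost its call in 13 of 23 alternatives, among them those without the 3 stromal-rich SF libraries (FDR = 0.114), without Lurie (FDR = 0.172) and without the SF library of Catnip (FDR = 0.0509), and limma voom called 0 of the 22. Growth and repair factors (17 tested) had VEGFA higher and AREG, the epidermal growth factor family ligand amphiregulin, lower. MMP9 was also the called member of the neutrophil precursor list (11 tested) and of the osteoclast list (12 tested), and the median of the former was -2.11, opposite in sign to MMP9. Without the SF library of Catnip at 10 d that median was -1.57, and without the 3 stromal-rich SF libraries it was -3.49.

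No gene was called by limma in 16 lists, in which 48 of 275 tested entries had an unadjusted p under 0.05 and 1 was called by limma voom. The members with the lowest p, besides POU2AF1, follow for 14 of these lists. Among blood and myeloid cell types these were HBA of the erythroid list at 2.13 (FDR = 0.169), GP9 of the megakaryocyte list at -1.05 (FDR = 0.52) and CD5L of the macrophage list at 3.20 (FDR = 0.11). Among immune and secreted factors they were IDO1 of the interferon-stimulated list at -1.91 (FDR = 0.128), CCL22 of the CC chemokines at -2.0 (FDR = 0.0648), SERPING1 of complement at -1.61 (FDR = 0.0626) and S100A1 of the S100 proteins at -2.34 (FDR = 0.0931). For metabolism and growth they were MCM5 of the cell cycle at -0.99 (FDR = 0.128), CTSL of the lysosome at 1.47 (FDR = 0.0539), NDUFS1 of the respiratory chain at 0.42 (FDR = 0.137), RPS23 of the ribosome at -0.25 (FDR = 0.54), SLC11A1 of heme and iron at 1.14 (FDR = 0.184), NR3C1 of the glucocorticoid list at 0.55 (FDR = 0.205) and INSR of the insulin-like growth factor axis at -0.66 (FDR = 0.229). The entry named RPS23 stayed under 1 GeTMM in all 28 libraries. For cell cycle genes the interaction was below 0 in 23 of 24, with a median of -0.57 and 0 called.

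Effects that vanished were of either sign. MAMDC2, a secreted MAM-domain protein, rose in both fluids and started higher in ISF. MAMDC2 had a lowest, median and highest level of 0.581, 1.2 and 3.04 GeTMM in SF at 48 h, 3.63, 9.47 and 13.8 in ISF at 48 h, 20.8, 28.5 and 48.4 in SF at 10 d and 15.6, 35 and 68.4 in ISF at 10 d. ISF lay above SF in all libraries at 48 h and overlapped it fully at 10 d. Its interaction was -1.94 ± 0.41 (SE; FDR = 0.00305; below 0 in 6 of 6 horses), its fluid difference went from 2.01 at 48 h to 0.07 at 10 d, and it was 1.07 at 96 h and 0.53 at 6 d. OXER1, a receptor for eicosanoids on granulocytes and monocytes, started lower in ISF. OXER1 had a lowest, median and highest level of 3.28, 10.9 and 27.3 GeTMM in SF at 48 h, 0.625, 1.36 and 3.06 in ISF at 48 h, 0.509, 1.9 and 3.58 in SF at 10 d and 0.239, 1.08 and 1.6 in ISF at 10 d. The ISF range at 48 h was below the SF range, and at 10 d the ranges overlapped. OXER1 had 1.78 ± 0.41 (SE; FDR = 0.00765; above 0 in 6 of 6 horses). PYGO1, a co-factor of Wnt signalling, gave 1.71 (FDR = 0.0151), and its fluid difference went from -1.45 at 48 h to 0.26 at 10 d. BATF3, a factor of dendritic cell development, gave -1.51 (FDR = 0.0474) and was higher in ISF at 48 h, 96 h and 6 d, by 1.46, 1.27 and 1.22. Without the 3 stromal-rich SF libraries OXER1 (FDR = 0.0673), PYGO1 (FDR = 0.13) and BATF3 (FDR = 0.158) were not called, nor were PYGO1 (FDR = 0.0564) and BATF3 (FDR = 0.0688) without Lurie. BATF3 lost its call in 13 of 23 alternatives. CD93, a receptor of monocytes and endothelial cells, gave -1.17 ± 0.28 (SE; FDR = 0.0102; below 0 in 6 of 6 horses) and went from 0.95 at 48 h to -0.23 at 10 d.

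The reversals were EXOC6, a subunit of the exocyst complex that tethers vesicles, and ENSECAG00000002165, which has no symbol. EXOC6 had a lowest, median and highest level of 14.4, 26.8 and 36 GeTMM in SF at 48 h, 14.1, 17.2 and 19.6 in ISF at 48 h, 9.69, 11.7 and 14 in SF at 10 d and 11.6, 16.1 and 19 in ISF at 10 d. Ranges overlapped at both times. EXOC6 had an interaction of 0.86 ± 0.18 (SE; FDR = 0.00277; above 0 in 6 of 6 horses) and went from -0.47 at 48 h to 0.39 at 10 d. ENSECAG00000002165 had an interaction of 2.71 ± 0.44 (SE; FDR = 0.000111) and went from -1.53 to 1.18. The effects that grew were FAXDC2, from -1.32 to -2.72, and SLC20A1, a phosphate transporter, from 0.65 to 1.48. These 3 genes fall outside the rule for named genes and were chosen after their values were seen.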

How the data were processed

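RNA-seq values were taken for 68 libraries of 8 horses, 28 of them SF or ISF cultures at 48 h or 10 d. The authors trimmed reads, mapped them to EquCab3.0 with STAR 2.7.2a, counted them per gene with its GeneCounts option and computed GeTMM. The deposited GeTMM values resemble RPKM, a length-corrected read density, with TMM scaling across libraries. The submitters' processing notes also name edgeR. No unused column of sample values was found. Whole reads were recovered from the deposited values (99.996% of values of 1 to 200 reads lay within 0.02 of a whole number), which gave the depth. Reads per library limit low genes, since 1 read on 1 kilobase was worth 0.0337 to 0.0979 GeTMM.

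Values were transformed as log2(GeTMM + 1), so that fold changes of low genes are understated. Genes with at least 0.5 GeTMM in 7 libraries were tested with limma 3.58.1 in R 4.3.3 (trended variance), in 1 fit of 9 groups without a horse term. P values are two-sided and FDR values cover the 14570 genes of a comparison. The fits were tested on simulated data with independent noise in each library and no horse effect. That test does not cover the pairing by horse described below. Exact tests flipped signs over 6 horses. Python 3.11.15 and matplotlib 3.10.9 made tables and figures.

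Libraries of 1 horse come from the same animal and are therefore paired by the horse name in the labels. Their deviations from the group means correlated at a mean of 0.21 to 0.41 per horse, against -0.06 to -0.01 with libraries of other horses in other groups. Horse was accordingly fitted as a block, for 68 libraries and within 6 horses, as an alternative. The within-horse fit takes its variance trend on mean expression. It had first been run with the trend on the mean difference, the default for a table of differences, and that result is given with the alternatives.

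Named genes were the 8 highest and 8 lowest interactions among called genes that carry a symbol, reach a group mean of 5 GeTMM at either time and share their sign over 6 horses, the 5 largest in each class, and up to 4 called members of each of 35 gene lists with the lowest p, or its lowest p where none was called. The genes, classes and lists were chosen with earlier results of these data known. Alternatives are given at the end. Some genes that this rule names are not reported here. Gene coordinates and sequences are not used here.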

Additional observations from a re-analysis of the deposited data

Results flagged for a closer look

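Single libraries stood apart from the other 6 of their group in 21 of 260 groups of 7 values examined for the named genes, by the gap to the nearest value as a share of the range on log2(GeTMM + 1). Chance alone flags about 1 in 20 such groups. In SF at 48 h it was CLU in Ollie (9.91 GeTMM). In ISF at 48 h they were PRELP in RimRun (25.2 GeTMM), GP9 in Lurie (55.3 GeTMM), IDO1 in RimRun (5.51 GeTMM), CIITA in RimRun (3.86 GeTMM), RFX5 in RimRun (10.5 GeTMM), HK1 in Ollie (163 GeTMM) and NDUFS1 in RimRun (40.9 GeTMM). In SF at 10 d they were CD5L in Moon (10.7 GeTMM), IRF8 in Dealings (116 GeTMM), HPGDS in Dealings (48 GeTMM), PPARD in Moon (33.3 GeTMM), RFX5 in Dealings (29.2 GeTMM), COL4A1 in Lurie (67.2 GeTMM), ERO1A in Lurie (132 GeTMM), BNIP3 in Lurie (365 GeTMM), P4HA1 in Lurie (287 GeTMM) and VEGFA in Lurie (51.8 GeTMM), 5 of them values of 1 library, that of Lurie. In ISF at 10 d they were GP9 in RimRun (2.07 GeTMM), SERPING1 in Dealings (2.68 GeTMM) and RPS23 in Catnip (0.164 GeTMM).

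The fluid effect differed between 48 h and 10 d by the interaction test of limma (FDR under 0.05) in each called gene that is named, on log2(GeTMM + 1). Among genes of glycolysis, hypoxia and the unfolded protein response the interaction was 2.71 for BNIP3, 2.36 for VEGFA, 2.28 for HK2, 2.21 for ERO1A, 1.69 for PGK1, 1.69 for DDIT3, 1.64 for P4HA1, 1.53 for ALDOA, 1.08 for BNIP3L, 1.08 for LDHA, 0.94 for HSPA5, 0.88 for HK1, 0.80 for HSP90B1 and 0.78 for EDEM1. Among the other genes with a positive interaction it was 3.75 for SERPINB10, 2.97 for TREM1, 2.81 for CXCL8, 2.56 for MMP9, 2.42 for TNFSF15, 2.41 for USP50, 2.35 for GOLGA7B, 2.28 for ITGB7, 1.78 for OXER1, 1.71 for PYGO1 and 0.86 for EXOC6. For lymphocyte, dendritic cell and MHC class II genes it was -0.68 for RFX5, -0.73 for IRF8, -1.51 for BATF3, -1.63 for CIITA, -1.69 for FSCN1, -1.71 for DRB, -1.98 for LCK, -2.12 for LAMP3, -2.27 for CD3E, -2.32 for CST7, -2.41 for CD3G and -2.51 for CD3D. Among the remaining genes with a negative interaction it was -1.08 for PPARD, -1.17 for CD93, -1.55 for IL18, -1.94 for MAMDC2, -1.96 for HPGDS, -2.33 for COL4A1, -2.42 for EMCN, -2.63 for TMEM92, -2.71 for CD52, -3.01 for MMP1, -3.41 for CLU, -3.47 for PRELP and -3.52 for DEFB1.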

How the results depend on the processing

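Every named gene kept the sign of its interaction under all alternatives that gave it a value, where it was called in the main analysis, while the number of genes past the threshold moved widely. Part of these genes were chosen for having 1 sign in all 6 horses, and several alternatives use the same group means. A kept sign was therefore largely fixed by the choice and is no test of the genes. With horse as a replicate block in 68 libraries, 1095 genes were called (527 higher, 568 lower), 892 appeared, 93 vanished and 12 reversed. Paired within the 6 horses with 4 libraries, limma called 969 (487 and 482; 328 of the 436 among them), with 623, 113 and 26 in the same order. Without a variance trend it called 859 (408 and 451; 305 of the 436), with 592, 95 and 18. With the trend on the difference itself, the covariate being then the tested effect, it called 0 (0 and 0; 0 appeared, 0 vanished, 0 reversed), although 3525 genes had an unadjusted p under 0.05. These last 2 settings, and the 2 that leave out SF libraries at 10 d, were chosen after seeing the data. Library weights gave 1641 (930 and 711), with 1030, 368 and 78. Leaving out the SF library of Moon at 6 d gave 979 (549 and 430), with 790, 108 and 11. Without the SF libraries of Dealings, Dreamer and Lurie at 10 d the counts were 175 (96 and 79), with 161, 11 and 0, and without that of Catnip 346. Requiring an absolute interaction of at least 1 left 252 (101 and 151), with 236, 12 and 1. Voom on recovered reads called 333, 145 of them higher, with 11 vanished. Vanished and reversed counts were 41 and 4 in the 28 libraries alone, 43 and 5 after quantile normalization and 12 and 1 with a pseudocount of 0.1. Vanished genes numbered 12 with a filter of 5 GeTMM. The share of calls that were higher was 53.0%, against 41.0% with a pseudocount of 0.1, 40.1% above an absolute interaction of 1 and 39.7% without RimRun. Leaving out each horse gave 173 (without Ollie) to 1174 (without Moon) calls, 88 to 649 higher, 84 to 525 lower, 156 to 977 appearing, 8 to 91 vanishing and 1 to 9 reversing. The cause of these shifts was not tested. With 7 libraries a group small interactions can be missed, and genes near 1 read are limited by depth.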

Other observations

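The called interactions had a similar size in each of the 6 horses with 4 libraries. The median over the 231 genes called higher was 0.78 in Lurie and 0.98 to 1.06 in the other 5, and the median over the 205 called lower was -1.0 in RimRun and -1.24 to -1.49 in the other 5. These horses also enter the fit that called the genes, so the values describe the calls.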
